A study of Homo sapiens with 6 samples.

Results

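The expression of 10 genes that respond to, or restrain, ERK signalling was followed in the hepatoblastoma line HepG2, a human liver tumour line with hepatocyte features. The genes were the zinc finger transcription factors EGR1 and EGR3, the dual-specificity phosphatases DUSP1, DUSP4, DUSP5 and DUSP6, the Sprouty proteins SPRY2 and SPRY4, their relative SPRED1, and the immediate-early gene IER3. They were chosen by name, with earlier results of these data known, and were looked up in the platform annotation. All 10 of them were found among 19775 annotated genes and were among the 11921 whose mean signal passed the filter on dim genes. Each was read by the probe set with the highest mean signal of the 20 probe sets that carry these names. The arms were siHNF4A, in which HNF4A, a transcription factor of hepatocytes, was targeted by siRNA, and siControl, with a control siRNA. Each arm was sampled at 0 h without TGF-beta and after 1.5 and 24 h with TGF-beta at 3 ng/ml. There was 1 Affymetrix array for each of these 6 conditions and no replicate of any. All groups shared the cell line and a transfection, 1 siRNA label stood for each arm, and no untreated array at 1.5 or 24 h was used here, so TGF-beta and time in culture cannot be told apart.

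Growth factor receptors pass their signal through Ras, Raf and MEK to the kinases ERK1 and ERK2, which phosphorylate ternary complex factors of the Elk type. These factors and SRF switch on immediate-early genes, EGR1 among the best known. Part of the output feeds back: DUSP phosphatases remove the activating phosphates from ERK and other MAP kinases, and Sprouty and SPRED proteins act upstream of ERK at the level of Ras and Raf. TGF-beta acts mainly through Smad transcription factors, and it also engages MAP kinase pathways in many cells.

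Promoter sequence is shown for the 4 members that had a window at hand and rose in the 24 h test below. What the genes share upstream of their starts was not used to choose the 10 members. The sequences are RefSeq's on GRCh38.p14, the 250 bases before the annotated start, written 5' to 3' on the gene's strand, and capitals mark every match to a motif searched.
EGR1 promoter, chr5:138465229-138465478, plus strand: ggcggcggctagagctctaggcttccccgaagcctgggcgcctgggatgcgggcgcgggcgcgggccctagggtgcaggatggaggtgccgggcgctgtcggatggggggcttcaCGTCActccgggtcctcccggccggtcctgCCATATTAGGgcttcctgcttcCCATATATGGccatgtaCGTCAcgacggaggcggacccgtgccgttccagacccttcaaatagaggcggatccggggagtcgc
DUSP1 promoter, chr5:172771196-172771445, minus strand: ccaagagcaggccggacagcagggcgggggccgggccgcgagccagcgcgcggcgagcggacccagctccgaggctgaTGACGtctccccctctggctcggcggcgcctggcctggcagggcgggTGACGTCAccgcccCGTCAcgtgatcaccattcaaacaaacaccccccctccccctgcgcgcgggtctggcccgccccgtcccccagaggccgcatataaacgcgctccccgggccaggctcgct
SPRY4 promoter, chr5:142324248-142324497, minus strand: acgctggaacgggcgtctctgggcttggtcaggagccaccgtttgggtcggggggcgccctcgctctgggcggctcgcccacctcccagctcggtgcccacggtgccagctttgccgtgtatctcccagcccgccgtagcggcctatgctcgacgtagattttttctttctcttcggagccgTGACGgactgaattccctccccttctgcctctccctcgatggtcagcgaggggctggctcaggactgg
DUSP6 promoter, chr12:89352502-89352751, minus strand: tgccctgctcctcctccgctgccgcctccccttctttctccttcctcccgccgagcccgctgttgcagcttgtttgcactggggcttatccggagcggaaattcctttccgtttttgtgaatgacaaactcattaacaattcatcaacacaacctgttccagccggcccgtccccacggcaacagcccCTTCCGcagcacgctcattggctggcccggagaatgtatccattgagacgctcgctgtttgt
Windows were at hand for 6 of the 10 members (EGR1, DUSP1, DUSP6, SPRY2, SPRY4 and SPRED1). SPRY2 had more than 1 window and was counted if any of them held a match, while the shares given below are per window. The motifs, searched on both strands, were the CArG box that SRF binds, the cyclic AMP response element TGACGTCA and its shorter core TGACG, the AP-1 site TGANTCA, the ETS core CGGAAG, the Smad site GTCTAGAC, and the EGR sites GCGGGGGCG and GCGTGGGCG. EGR1 held 2 CArG boxes, 105 to 96 and 83 to 74 bases before its start, and was the 1 member with that motif, which stood in 1.16% of all 35116 windows of this length. DUSP1 held the full TGACGTCA 125 to 118 bases before its start, a motif of 1.65% of windows. The core TGACG, which the full element contains, stood in EGR1, DUSP1, SPRY4 and SPRY2 and in 21.2% of windows. CGGAAG stood in DUSP6 and in 16.5% of windows, and an EGR site in SPRY2 and in 5.37%. None of the 6 members had TGANTCA (6.57% of windows) or GTCTAGAC (0.182%) in this stretch. A match describes letters and is not evidence of binding.

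The values are MAS5 signals, which combine the probe pairs of a probe set on a linear scale. Every array had a trimmed mean of 100, and medians ran from 12.4 to 13.3. A floor of 12.9, the median of all signals, was set under dim values before log2 was taken. The siControl 0 h array stood apart in 1 control probe set, AFFX-HUMRGE at its 5' end, with 8600 against 69.8 to 736.5 on the other 5 arrays, and each limma comparison below was also computed without it, except the change of the siRNA effect at 24 h, which could not be fitted that way. The 9 hepatocyte markers were above the floor on all arrays, with summed signals of 53889 to 59521 in siHNF4A cells and 50442 to 54896 in siControl cells. Of 12 markers of blood, endothelial and fibroblast cells, PTPRC, VWF, CDH5, KDR and COL3A1 were at or under the floor on all 6 arrays, and the sum of the 12 was 2439 to 3118 in siHNF4A cells and 2492 to 3004 in siControl cells, most of it LYZ (2208 to 2996 and 2317 to 2743). In limma, at 24 h SERPINA1 (0.34 ± 0.09) and the endothelial marker PECAM1 (1.01 ± 0.27) rose and TTR (-0.54 ± 0.14) and FGB (-0.65 ± 0.14) fell, and with siHNF4A FGB (0.74 ± 0.11) rose and TTR (-0.52 ± 0.12) fell, as log2 differences. Without the siControl 0 h array SERPINA1 and PECAM1 did not pass at 24 h. The part of other cells in the results was not tested. The level of HNF4A was not analysed here, and the labels of the arms have no check from it. These are bulk measurements, in which fewer cells of a kind and less RNA per cell cannot be told apart.

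The first comparison asked which of these genes differed after 24 h of TGF-beta. Both EGR genes, 3 of the 4 DUSP genes, SPRY4 and IER3 rose, and SPRY2, SPRED1 and DUSP4 did not pass the test. In limma, with the siRNA as a block and Benjamini-Hochberg adjustment over all 11921 genes at a threshold of 0.05, 7 of 10 members rose and 0 fell, where 7.22% of all genes tested rose and 7.82% fell. The median difference of the 10 members was 1.41 on the log2 scale, and that of all genes was -0.03.

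EGR1, which encodes an immediate-early transcription factor, gave signals of 416, 449.5 and 2789 at 0, 1.5 and 24 h in siHNF4A cells, against 351.5, 371 and 747 in siControl cells. The 24 h array was the highest of each arm, and both 24 h signals lay above the other 4. Over both siRNAs EGR1 rose by 1.92 ± 0.28 (log2 difference ± limma's standard error, adjusted p = 0.000357). EGR3, a relative of EGR1, gave 10.5, 19.1 and 115 in siHNF4A cells, against 7.4, 18.5 and 35.8 in siControl cells. It was under the floor at 0 h in both arms, so the fitted rise at 24 h of 2.32 ± 0.40 (adjusted p = 0.00137) depends on the floor: it was 2.78 with the floor at the 40th percentile of signals and 1.51 at the 60th.

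DUSP1, a nuclear phosphatase for several MAP kinases and itself an immediate-early gene, gave 430, 788 and 1958 in siHNF4A cells, against 271, 457 and 463 in siControl cells. It rose by 1.48 ± 0.25 over both siRNAs (adjusted p = 0.000968). In siControl cells the 1.5 h and 24 h arrays were alike, while in siHNF4A cells the 24 h array stood far above the 1.5 h array. DUSP5, a nuclear phosphatase selective for ERK, gave 103, 75.7 and 431 in siHNF4A cells, against 84.0, 65.0 and 137 in siControl cells, and rose by 1.39 ± 0.30 (adjusted p = 0.00531). DUSP6, the cytoplasmic ERK phosphatase, gave 492, 441 and 1649 in siHNF4A cells, against 634, 471 and 1362 in siControl cells, and rose by 1.42 ± 0.15 (adjusted p = 3.14e-05). For DUSP6 the arms were close at 24 h and both lay above every earlier array. DUSP4, a nuclear ERK phosphatase, was dim, with 32.6, 29.1 and 50.2 in siHNF4A cells, against 23.5, 20.3 and 33.9 in siControl cells, and its difference of 0.58 ± 0.30 did not pass (adjusted p = 0.233).

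Of SPRY4, SPRY2 and SPRED1, SPRY4 rose and the other two did not pass. SPRY4, an inhibitor of receptor-driven Ras and ERK activation, gave 226, 227 and 891 in siHNF4A cells, against 207, 227 and 311 in siControl cells, a rise of 1.28 ± 0.27 (adjusted p = 0.00505). SPRY2, with a like role, gave 138.5, 166 and 172.5 in siHNF4A cells, against 149, 199.7 and 163 in siControl cells. Its highest array was siControl at 1.5 h, and its 24 h difference was 0.22 ± 0.19 (adjusted p = 0.495). SPRED1, which brings neurofibromin to Ras, gave 253, 253 and 299.7 in siHNF4A cells, against 274, 255 and 325 in siControl cells. It varied least of the 10, and its 24 h difference was 0.25 ± 0.16 (adjusted p = 0.355). IER3, a short-lived stress and growth factor response protein, was the brightest member, with 2424, 3443 and 9674 in siHNF4A cells, against 2096, 2758 and 6686 in siControl cells. It rose by 1.83 ± 0.11, with an adjusted p of 2.5e-07, and the signals were ordered by time in both arms.

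**Figure D1:**
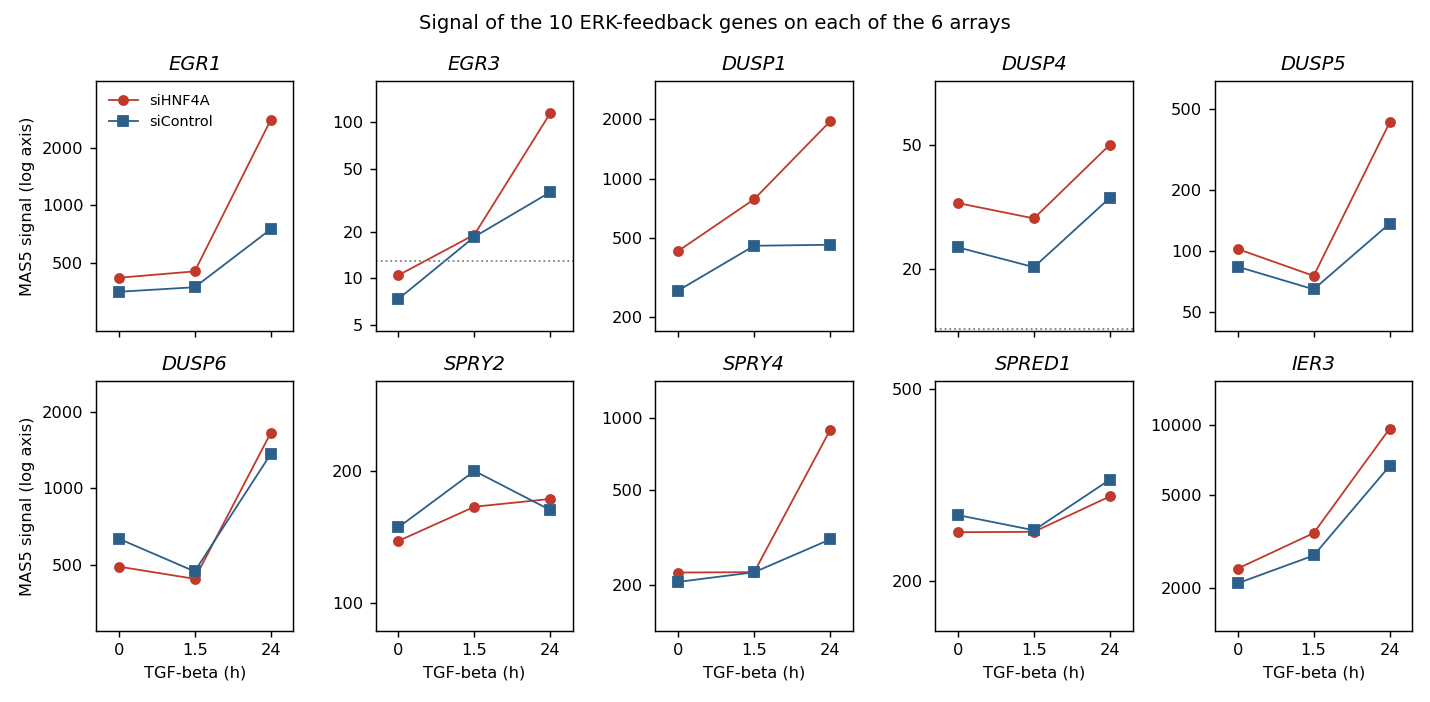
MAS5 signal (log axis) of each gene at 0, 1.5 and 24 h of TGF-beta, with 1 array per point, siHNF4A as circles and siControl as squares; each gene has its own signal axis, the times are evenly spaced and not to scale, and the dotted line is the floor of 12.9 where it falls in range. All but SPRY2 are highest at 24 h in both arms, and the siHNF4A point is the higher of the 24 h pair for all genes but SPRED1.

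Without the siControl 0 h array the fitted 24 h differences carry part of the siRNA effect at 24 h, so that fit is no independent check of them. The count of members that rose at 24 h depended on how limma estimated the spread and on the probe sets and genes entered. Without limma's intensity trend DUSP6 and IER3 passed, averaging all probe sets of each gene EGR3, DUSP6 and IER3 passed, and without the filter on dim genes none did. Against 1.5 h in place of 0 h, 6 members rose and 0 fell, where 6.4% of all genes rose and 7.01% fell. On the log2 scale DUSP5 was 1.79 ± 0.30 above its 1.5 h level, DUSP6 1.72 ± 0.15, EGR1 1.82 ± 0.28, EGR3 1.77 ± 0.40, SPRY4 1.21 ± 0.27 and IER3 1.38 ± 0.11. DUSP1 had 0.67 ± 0.25 (adjusted p = 0.0902).

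**Figure D2:**
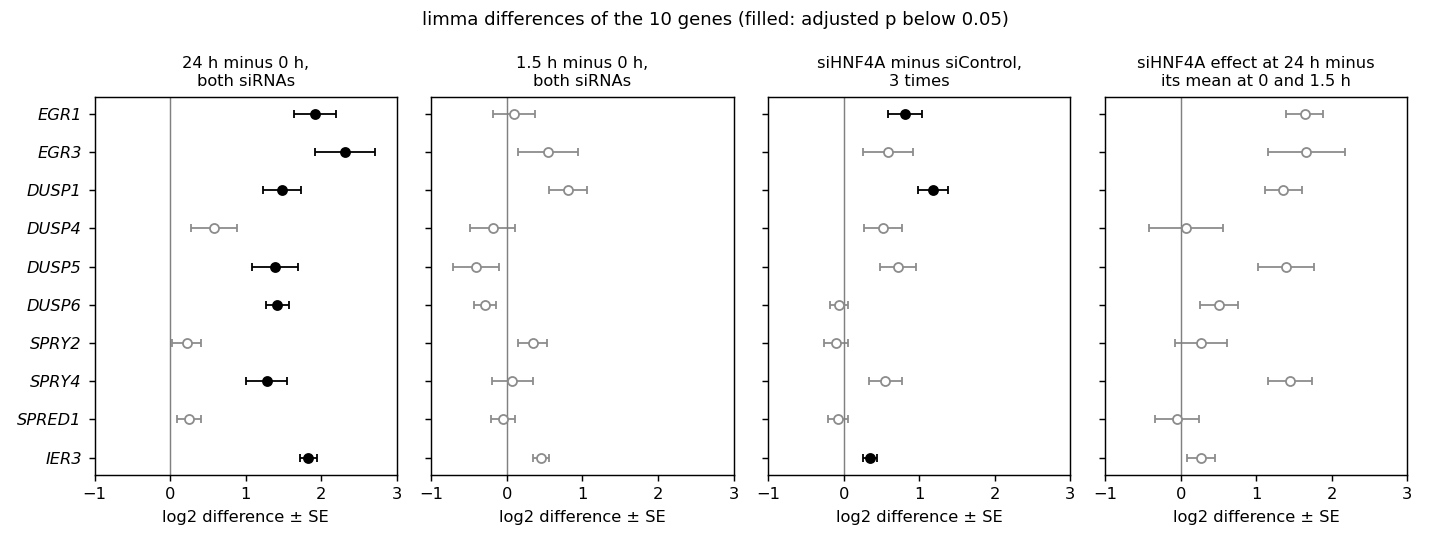
Log2 differences with limma's standard error for the 10 genes in 4 comparisons; filled points passed at an adjusted p of 0.05. Of the 10, 7 are filled at 24 h, none at 1.5 h, 3 for the siRNA and none for the change of the siRNA effect at 24 h.

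The early comparison asked whether these genes, several of them immediate-early genes, differed at 1.5 h. None of the 10 members passed in limma, in either direction. Over all genes 0.0839% rose and 0.0168% fell, and 2 members (DUSP1 and IER3) and 364 genes had an unadjusted p under 0.05. DUSP1 was 1.83-fold higher at 1.5 h than at 0 h in siHNF4A cells and 1.69-fold in siControl cells, a difference of 0.81 ± 0.25 (adjusted p = 0.948). Without the siControl 0 h array the fitted difference of DUSP1 was 1.20, above its single-array log2 differences of 0.87 in siHNF4A and 0.75 in siControl cells. That fit has only siHNF4A at 0 h and sets the siControl level there from the siRNA effect at 1.5 and 24 h. IER3 was 1.42-fold higher in siHNF4A cells and 1.32-fold in siControl cells (0.45 ± 0.11, adjusted p = 0.327). EGR1 differed little at 1.5 h, with folds of 1.08 and 1.06 in siHNF4A and siControl cells. DUSP5 and DUSP6 had negative differences in both arms: DUSP5 was at 0.737 and 0.774 of its 0 h signal in siHNF4A and siControl cells, and DUSP6 at 0.895 and 0.743. With dim signals raised to the floor, no member reached 2-fold in either arm at 1.5 h. Of all genes 0.537% were at least 2-fold higher and 1.46% lower in siHNF4A cells, and 0.973% and 0.721% in siControl cells. EGR3 was under the floor at 0 h. Its folds were at least 1.48 in siHNF4A and at least 1.43 in siControl cells, so whether it reached 2-fold is not shown. Its fitted 1.5 h difference was 0.54 ± 0.40, and it moved to 1.01 when signals were floored at 8.3 and to 0.00 at 22.6.

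The comparison of siRNAs asked which members differed between siHNF4A and siControl cells. DUSP1, EGR1 and IER3 rose with siHNF4A over the 3 times, and no member fell. In limma, with time as a block, 3 of 10 members rose, where 3.9% of all genes tested rose and 4.16% fell. DUSP1 rose by 1.18 ± 0.20 (adjusted p = 0.00205), EGR1 by 0.81 ± 0.23 (adjusted p = 0.044) and IER3 by 0.35 ± 0.09 (adjusted p = 0.0191). With quantile normalization DUSP1 alone passed (adjusted p = 0.0598 for EGR1 and 0.059 for IER3), and EGR1 did not pass with the floor at the 40th percentile (adjusted p = 0.0533). No member passed without limma's trend, without the filter on dim genes or with probe sets averaged. All probe sets of DUSP1, EGR1 and IER3 end in _x_at or _s_at. Without such sets these 3 were not measured, and no member left passed. DUSP5 (0.72 ± 0.24, adjusted p = 0.0849) and SPRY4 (0.55 ± 0.22, adjusted p = 0.156) did not pass. The remaining differences were 0.58 for EGR3, 0.52 for DUSP4, -0.06 for DUSP6, -0.08 for SPRED1 and -0.10 for SPRY2, and the median of the 10 was 0.53, against -0.04 for all genes.

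These averages over 3 times joined unequal values. DUSP1 was 1.59-fold higher in siHNF4A than in siControl cells at 0 h, 1.72-fold at 1.5 h and 4.23-fold at 24 h, so it was higher at every time. EGR1 had folds of 1.18, 1.21 and 3.73, and SPRY4 had 1.09, 1.00 and 2.86. DUSP5 had 1.22, 1.16 and 3.15, and EGR3, not measurable above the floor at 0 h, had 1.03 at 1.5 h and 3.22 at 24 h. Those 5 genes were the members at 2-fold or more at 24 h, where 2.23% of all genes were at least 2-fold higher and 3.05% lower. No member was at 2-fold at 0 h or 1.5 h, where 1.47% and 1.54% of genes were higher and 1.63% and 3.26% lower. IER3 (1.16, 1.25 and 1.45) and DUSP4 (1.39, 1.43 and 1.48) were a little higher in siHNF4A cells at each time. DUSP6 had 0.777, 0.935 and 1.21, SPRY2 0.931, 0.829 and 1.06, and SPRED1 0.922, 0.993 and 0.923. Without the 24 h pair of arrays DUSP1 was the 1 member to pass (0.73), while EGR1 had 0.26 and IER3 0.26. Without the 1.5 h pair it was again DUSP1 alone, and without the siControl 0 h array, or the 0 h pair, DUSP5 (0.94) and SPRY4 (0.76) joined the 3.

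The 24 h responses of the arms were then set beside each other. At 24 h EGR1 was 6.7-fold above its 0 h signal in siHNF4A cells, against 2.13-fold in siControl cells, and EGR3 at least 8.92-fold against at least 2.78-fold. DUSP1 was 4.55-fold against 1.71-fold, DUSP5 4.2-fold against 1.63-fold, and SPRY4 3.94-fold against 1.5-fold. In these 5 genes the response in siHNF4A cells was larger by 1.36 to 1.68 on the log2 scale, with EGR3 taken at the floor at 0 h in both arms, and 2.95% of all genes had a difference of at least 1. DUSP6 (3.35-fold against 2.15-fold) and IER3 (3.99-fold against 3.19-fold) had responses of more equal size. DUSP4 (1.54-fold against 1.44-fold), SPRY2 (1.25-fold against 1.09-fold) and SPRED1 (1.19-fold against 1.18-fold) had small responses in both arms. In siHNF4A cells 7 members were at 2-fold or more at 24 h, where 4.5% of all genes were higher and 4.61% lower, and in siControl cells 4 were, where 3.11% were higher and 2.6% lower. Against 1.5 h the counts were again 7 in siHNF4A cells (4.86% of genes higher, 3.51% lower) and 4 in siControl cells (3.48% higher, 3.01% lower), and no member was 2-fold lower. The siHNF4A 24 h array held the highest signal of 8 members, and of 22.2% of all genes tested.

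**Figure D3:**
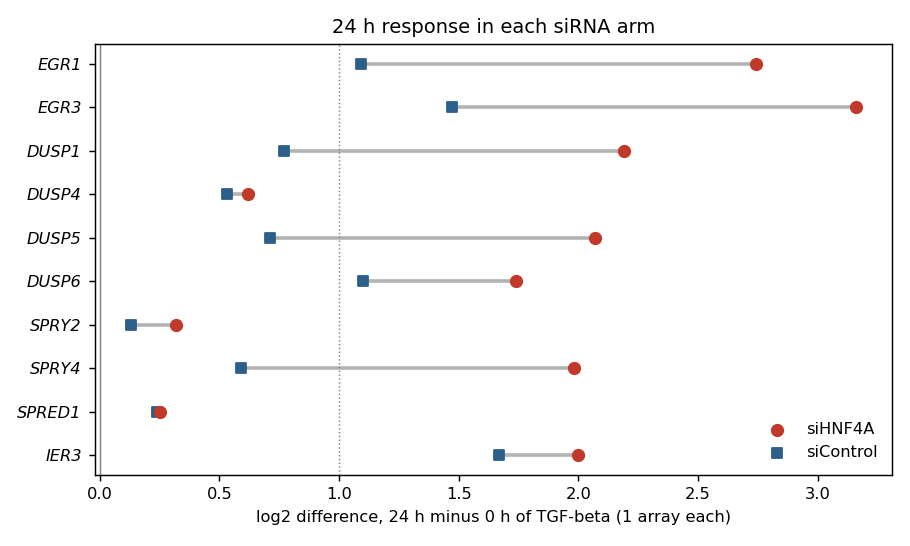
Log2 difference between 24 h and 0 h of TGF-beta in siHNF4A (circles) and siControl cells (squares), from 1 array each, with the dotted line at 2-fold. The grey bars are long for EGR1, EGR3, DUSP1, DUSP5 and SPRY4 (1.36 to 1.68) and short for DUSP4, SPRY2 and SPRED1 (0.00 to 0.19).

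Whether the siRNA effect differed at 24 h was tested with a further term, the siRNA effect at 24 h minus its mean at 0 and 1.5 h. No member passed in limma, and 0% of all genes did in either direction (541 genes and 5 members had an unadjusted p under 0.05). The difference was 1.64 ± 0.24 for EGR1 (adjusted p = 0.273), 1.66 ± 0.51 for EGR3 (0.999), 1.36 ± 0.25 for DUSP1 (0.453), 1.40 ± 0.37 for DUSP5 (0.999) and 1.45 ± 0.29 for SPRY4 (0.47). DUSP6 had 0.51 ± 0.25 and IER3 0.27 ± 0.18, and DUSP4, SPRY2 and SPRED1 lay between -0.05 and 0.27. This fit had 1 residual degree of freedom and 8.4 prior degrees of freedom, so the test rests largely on the spread of other genes. With a pseudocount equal to the floor in place of the floor EGR1 (1.63), SPRY4 (1.42) and DUSP1 (1.35) passed, among 24 genes in all.

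**Figure D4:**
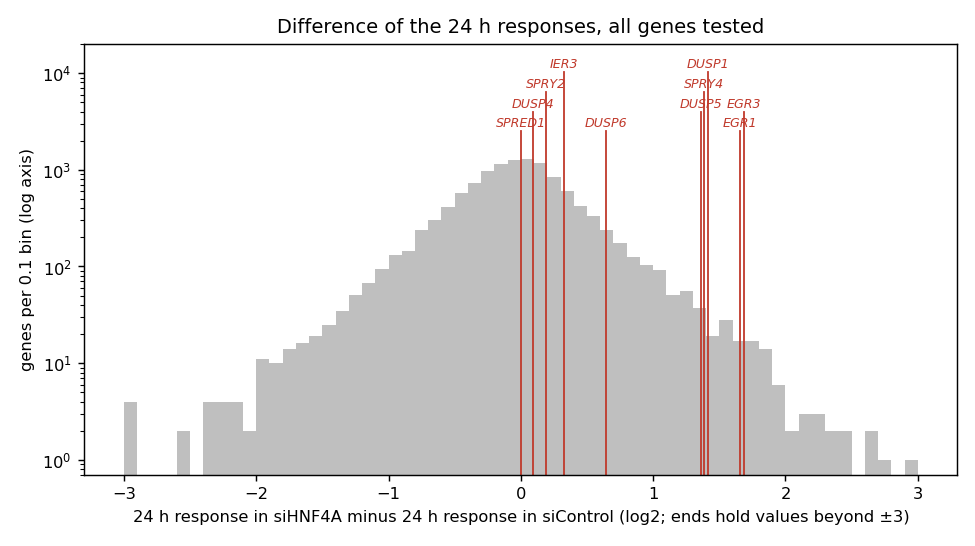
Number of genes (log axis) by the difference between their 24 h response in siHNF4A and in siControl cells (log2), for the 11921 genes tested, with the 10 members as labelled lines. EGR1, EGR3, DUSP1, DUSP5 and SPRY4 lie between 1.36 and 1.68, in the upper tail, and the other 5 between 0.00 and 0.64.

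Several members were read by further probe sets, on the same arrays. A second EGR1 probe set gave 234, 218 and 644.5 in siHNF4A cells, against at most 206 before 24 h and 363 at 24 h in siControl cells, and another, dimmer one gave 16.0, 24.0 and 142, against 23.3, 18.6 and 32.4. Both had their highest signal at 24 h in siHNF4A cells and their next highest at 24 h in siControl cells. The size of the EGR1 difference between arms at 24 h depended on the probe set. It was 3.73-fold with the one used, under 2-fold with the second and above 2-fold with the dimmer one. The siRNA difference of EGR1 over 3 times was 0.38 and 0.65 with these probe sets and did not pass. The 2 further DUSP6 probe sets gave 937 and 698 at 24 h in siHNF4A cells, against 863 and 460 in siControl cells, and at most 374 on any earlier array. For DUSP1 a second probe set gave 43.9, 50.9 and 169.7 in siHNF4A cells, against 16.8, 28.2 and 20.9 in siControl cells. Another DUSP1 probe set, near the floor, did not show this order, with 25.9, 22.0 and 16.3 against 5.1, 34.8 and 20.5. The other DUSP4 probe sets reached at most 15.9, and those of SPRED1 ranged from 25.8 to 73.7. EGR3, DUSP5, SPRY2, SPRY4 and IER3 had 1 probe set each. All 3 EGR1 probe sets, and those used for DUSP1, DUSP4, SPRY4 and IER3, end in _s_at, a name Affymetrix gives to sets whose probes can match more than 1 transcript.

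The members were compared among themselves by the Pearson correlation of their log2 signals over the 6 arrays, a description of 6 points that share the siRNA and time design. Among the 9 members above the floor on all arrays the 36 correlations ran from -0.21 to 0.99, with a median of 0.78. EGR1 was closest to SPRY4 (0.99) and DUSP5 (0.98), and DUSP6 was closest to SPRED1 (0.93), although SPRED1 varied much less. SPRY2 stood apart, with no correlation above 0.33. Of 2544 other genes above the floor on all arrays and with a range of at least 1 on the log2 scale, the closest to EGR1 were MLLT11 (0.996), LCK (0.995) and CDKN1A (0.990). DUSP1 was most like IER2 (0.983), a fellow immediate-early gene, then BAIAP2L1 (0.974) and CRABP2 (0.972). The closest to DUSP5 was NDRG4 (0.997), to DUSP6 RIN2 (0.994), to SPRY4 MLLT11 (0.984) and to IER3 ABHD6 (0.995). High values are common over 6 arrays: 230 of the 2544 genes (9.04%) exceeded 0.9 with EGR1.

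Other genes of the pathway were taken from lists. The 31 measured immediate-early and ERK output genes had a median difference of 0.54 at 24 h, against -0.03 for all genes. Of the 31, 15 rose at 24 h and none fell, where 7.22% of all genes tested rose and 7.82% fell. The largest were the matricellular CCN1 (2.06 ± 0.23), the AP-1 subunit JUNB (2.01 ± 0.26), the EGF receptor ligand HBEGF (1.39 ± 0.24), the cytokine LIF (1.10 ± 0.27), the transcription factor KLF4 (1.03 ± 0.27) and the urokinase receptor PLAUR (1.03 ± 0.26). The ETS factors ETV4 (-0.24 ± 0.17) and ETV5 (-0.12 ± 0.16), which ERK signalling raises in many cells, did not pass, nor did FOS (0.49 ± 0.46) or FOSL1 (0.23 ± 0.23). The FOS value averages arms that went opposite ways. FOS gave 33.3, 21.7 and 83.8 in siHNF4A cells, against 17.3, 20.0 and 13.5 in siControl cells. Its change of the siRNA effect at 24 h was 2.10 ± 0.55 and did not pass (adjusted p = 0.999). At 1.5 h JUNB (2.93 ± 0.26) and KLF10 (1.24 ± 0.13) rose and MYC fell by 0.94 ± 0.14, 3 of the 31. Without the siControl 0 h array ZFP36 and CCN1 also passed as higher at 1.5 h, in a fit with only siHNF4A at 0 h. As for DUSP1 above, that fit sets the siControl level at 0 h from the siRNA effect at 1.5 and 24 h. It is no independent check of an early rise in these 2 genes. With siHNF4A 7 of the 31 rose and none fell, where 3.9% of all genes rose and 4.16% fell. The EGF receptor ligand EREG (1.08 ± 0.26) and KLF4 (1.05 ± 0.22) were the largest. Without the siControl 0 h array 12 rose at 24 h, and with siHNF4A 10 rose and 1 fell.

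Of 10 other Sprouty, SPRED and ERK inhibitor genes 3 rose at 24 h and none fell, where 7.22% of all genes tested rose and 7.82% fell. The 3 were SPRY1 (0.96 ± 0.16), the EGF receptor inhibitor ERRFI1 (1.05 ± 0.10) and the FGF signalling inhibitor IL17RD (1.39 ± 0.34, fitted with its 0 h signals at the floor in both arms). SPRY1 gave 349, 213 and 723 in siHNF4A cells, against 285, 184 and 522 in siControl cells. Within the family SPRY1 and SPRY4 rose, while SPRY2, SPRED1, SPRED2 (-0.08 ± 0.14) and SPRED3 (0.22 ± 0.33) did not pass, and SPRY3 was too dim to be tested. Of 9 other DUSP genes none rose at 24 h and DUSP9 (-0.93 ± 0.19) and DUSP14 (-0.58 ± 0.17) fell. DUSP9, another cytoplasmic ERK phosphatase, gave 806, 565 and 319 in siHNF4A cells, against 666, 899 and 466 in siControl cells. Of 25 measured genes of the ERK pathway itself, the ternary complex factors ELK3 (1.26 ± 0.15) and ELK4 (0.86 ± 0.22) and the receptor MET (0.60 ± 0.12) rose at 24 h, ERBB3 (-0.43 ± 0.13) fell, and 21 did not pass. MET also rose with siHNF4A (0.73 ± 0.10), the 1 of the 25 to do so, or 1 of 3 without the siControl 0 h array. A count of 1 of 25 is near the share of all genes, of which 3.9% rose with siHNF4A and 4.16% fell. Of 9 EGR corepressors and EGR1 target genes, THBS1 (1.05 ± 0.13), PDGFB (1.34 ± 0.35), TGFB1 (0.85 ± 0.20) and FN1 (0.30 ± 0.09) rose at 24 h, or 2 of them without that array, and THBS1 (0.98 ± 0.10) and ICAM1 (1.39 ± 0.15) rose with siHNF4A. The EGR corepressors NAB1 (-0.13 ± 0.16) and NAB2 (0.20 ± 0.29) did not pass at 24 h.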

How the data were processed

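Per the labels, each of 6 HepG2 RNA samples was biotin-labelled and read on its own Affymetrix array. The deposited intensities are linear MAS5 signals, made by the authors; the submitters' processing notes name MAS5 5.0 and GCOS; the genome build is not given in the sources used here. Signals were used as deposited. Of 54675 probe sets 41097 had 1 gene symbol in the platform annotation, 1801 several and 11777 none; the brightest probe set by mean signal stood for a gene. Signals below 12.9 were raised to that floor before log2. limma 3.58.1 in R 4.3.3 (lmFit, eBayes with trend, Benjamini-Hochberg) fitted siRNA and time as terms, with 2 residual and 12.6 prior degrees of freedom. The fit was also run on simulated data with 200 genes changed 2-fold. It recovered 85.5% of them for the siRNA, 78.0% at 1.5 h and 62.0% at 24 h, with 9, 12 and 2 false calls. A siRNA effect that changes with time was not simulated. With 1 array per group the residual is the disagreement between times or arms, and the labels name no separate cultures. The members, gene lists and tests were chosen with earlier results of these data known. Named genes are the members, up to 6 passing genes per list and comparison by size, and the 3 genes most alike. ETV4, ETV5, FOS, FOSL1, SPRED2, SPRED3, SPRY3, NAB1 and NAB2 were named after their values were seen. Figures were made with Python 3.11.15 and matplotlib 3.10.9.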

Additional observations from a re-analysis of the deposited data

Results flagged for a closer look

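The siRNA effect on DUSP6 had opposite signs at 24 h and at 0 h, 0.28 and -0.36 on the log2 scale (siHNF4A minus siControl, 1 array each), and so did that on SPRY2, 0.08 and -0.10. The 24 h against 0 h difference was not tested by itself. In limma the effect at 24 h minus its mean at 0 and 1.5 h was 0.51 ± 0.25 for DUSP6 (adjusted p = 0.999) and 0.27 ± 0.34 for SPRY2 (adjusted p = 0.999).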

How the results depend on the processing

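Among values of single members under the alternatives, 540 kept their direction and their side of the threshold, 50 no longer passed, 11 newly passed and 14 changed sign. With 1 array per condition there were no replicates to pair. The siRNA and time were each fitted with the other as a block, which sets the arms beside each other within each time. Members passing at 24 h (7) numbered 3 when probe sets of a gene were averaged, 3 of the 5 measured without probe sets ending in _x_at or _s_at, 0 without the filter on dim genes and 2 without the trend, and those at 24 h against 1.5 h (6) were 3, 3, 0 and 2. Members passing for the siRNA (3) were 1 with quantile normalization and 0 under those same 4 settings, though leaving out _x_at and _s_at sets left all 3 unmeasured. They were 5 without the 0 h pair or the siControl 0 h array, and 1 without the 1.5 h or the 24 h pair. For the change of the siRNA effect at 24 h (0) they were 1 with the floor at the 40th percentile (EGR1) and 3 with a pseudocount. At 1.5 h (0) DUSP1 was the member that moved without the siControl 0 h array, in a fit with only siHNF4A at 0 h. Over all genes the siRNA count of 961 was 227 with mean probe sets, 0 unfiltered, 45 without the trend, 578 with the 1.5 h arrays left out and 235 with the 24 h arrays left out. The 24 h count of 1793 was 806, 1 and 457 under the first 3 of these, and the 24 h against 1.5 h count of 1599 was 736, 1 and 404. The 1.5 h count of 12 was 0 under all 3, 7 without _x_at and _s_at probe sets and 26 without the siControl 0 h array, and the count of 0 for the siRNA effect at 24 h was 4 with the lower floor, 24 with the pseudocount and 638 unfiltered. Scaling to the median moved the siRNA split from 465 higher and 496 lower to 558 and 385. Members at 2-fold higher, 5, 7, 7, 4 and 4 (siRNA at 24 h, then 24 h against 0 h and against 1.5 h in siHNF4A and the same in siControl), were 2, 3, 3, 2 and 2 of 5 without _x_at and _s_at sets, and the last was 2 with the pseudocount. Some signs turned. The siRNA difference of DUSP6 was 0.09 without the 0 h pair or the siControl 0 h array and 0.04 with another probe set, and that of SPRED1 was 0.09 with mean probe sets and 0.23 and 0.11 with its others. The change of the siRNA effect at 24 h for SPRED1 was 0.33, 0.80 and 0.25 in that order, and its 24 h differences with 1 other probe set were -0.08 from 0 h and -0.01 from 1.5 h. The dimmest DUSP1 probe set gave -0.60 for 24 h against 1.5 h (0.67 with the brightest) and -0.50 for the change of the siRNA effect (1.36 with the brightest), and a second EGR1 probe set gave -0.03 at 1.5 h. The cause was not tested. The change of the siRNA effect at 24 h could not be fitted with arrays left out. Fits without arrays have 1 residual degree of freedom and rest on limma's prior, and dim signals limit EGR3 and DUSP4.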
